A study of Drosophila melanogaster with 16 samples.

Results

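The cells described here, called clock neurons below, are 3985 sorted cells of the Drosophila brain. They come from 4 single-cell RNA libraries collected at ZT14, 2 hours into the night, and at ZT02, 2 hours into the day. They were chosen by their own transcripts. A cell was kept when its UMIs (unique molecular identifiers, each standing for 1 captured RNA molecule) of Clk, per, tim and cwo summed to 4 or more. These 4 gate genes were not counted as results. The gate kept 3985 of the 9743 cells in the 4 libraries, and the series holds 23921 cells in 10 libraries. Each time point was collected once in December and once in March, so that each date gave 1 ZT14 and 1 ZT02 library.

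All flies carried Clk856-GAL4 together with the split-GAL4 pair R11B03-AD and VT002670-DBD, which drove UAS-EGFP. R11B03-AD is built on a regulatory region of cwo and VT002670-DBD on one of vri. Brains of equal numbers of males and females were dissected after at least 3 days of entrainment in light-dark cycles, and EGFP-positive cells were sorted before droplet capture. The ZT14 groups were therefore in darkness and the ZT02 groups in light, and an effect of light cannot be told apart from an effect of clock time. The drivers thus rest in part on regions of clock genes, and the sort can hold cells other than clock neurons.

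The fly clock is a transcriptional feedback loop. CLK and CYC bind E-boxes and switch on per and tim, whose proteins return to the nucleus and block CLK and CYC. The same activators drive vri and Pdp1, whose protein products repress and activate Clk, and cwo, a repressor that also acts at E-boxes. Transcripts driven by CLK and CYC are known to peak around dusk and early night in fly heads and to be low in the morning. The neurons that carry this loop differ widely in peptides, transmitters and receptors, and so they can respond to the same time of day in different ways.

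In the December collection the gate kept 402 of 792 cells at ZT14 (50.8%, exact 95% binomial interval 47.2 to 54.3%) and 194 of 421 cells at ZT02 (46.1%, 41.2 to 51.0%). In the March collection it kept 1899 of 2779 cells at ZT14 (68.3%, 66.6 to 70.1%) and 1490 of 5751 cells at ZT02 (25.9%, 24.8 to 27.1%). Kept cells held a median of 17 and 15 gate UMIs, summed over the 4 genes, at ZT14 against 11 and 8 at ZT02, December first. The summed cells held 3365931 and 15215785 UMIs at ZT14 and 2026913 and 13320708 UMIs at ZT02. The median depth per cell was 7204 and 6392 UMIs at ZT14 and 9996.5 and 7119 UMIs at ZT02. Intervals cover counting error only. Cells with exactly 4 gate UMIs had 1.47 and 2.92 vri UMIs per 10000 at ZT14, against 10.6 and 11.6 in all kept cells. At ZT02 the values were 0.478 and 0.984, against 2.49 and 2.02. Whether the gate kept like cells at both time points was not tested. Levels below are UMIs per 10000 UMIs of the summed cells of a library, given in the order ZT14 December, ZT14 March, ZT02 December, ZT02 March.

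Neuronal markers were abundant in every sum, and markers of other cell types were lower but not absent. The 7 neuron markers summed to 108 and 108 per 10000 at ZT14 and to 132 and 119 at ZT02. The glial list summed to 11.6 and 1.60 at ZT14 and to 11.5 and 2.24 at ZT02, mostly Eaat1, with repo at 0.0315 or less. The photoreceptor list summed to 11.9 and 4.09 at ZT14 and to 6.25 and 5.43 at ZT02, mostly norpA and Arr2 (Arr2 at 4.52 in the December ZT14 library), with ninaE at 0.333 or less. Fat body markers stayed at 0.51 or less, hemocyte markers at 3.28 or less in sum and muscle markers at 0.16 or less. Of the hemocyte markers, Hml was at 0.256 and 0.108 at ZT14 and at 0.898 and 2.05 at ZT02. The December libraries held few cells rich in Pdf. Of the kept cells, 0 of 194 in the December ZT02 library and 4 of 402 in the December ZT14 library had 20 or more Pdf UMIs. In March these were 57 of 1490 at ZT02 and 83 of 1899 at ZT14. Pdf encodes the peptide of the ventral lateral neurons.

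Among 8366 genes tested besides the gate genes, 106 were higher and 190 were lower at ZT14 than at ZT02, which is 1.27% and 2.27% of the genes tested (edgeR quasi-likelihood test with collection date as a block, Benjamini-Hochberg adjusted p under 0.05). At an unadjusted p under 0.05 there were 1465 genes, or 17.5%. The median log2 fold change, ZT14 over ZT02, was 0.03 over all genes tested, 1.40 over the higher genes and -1.14 over the lower genes. The plot of fold change against p shows this wedge, with broad clock genes such as vri between a dense centre and a few rare transcripts of very large fold. Of the called genes, 105 of 106 and 188 of 190 changed the same way in both dates, against 5601 of 8366 genes tested; a call in a fit with date as a block nearly fixes this. With 2 libraries per time point the fit had 1 residual degree of freedom, and the date block carried the calls. Without the block 0 genes passed in either direction (645 genes had an unadjusted p under 0.05), while DESeq2 with the block called 82 higher and 218 lower genes. Of those, 64 and 150 were among the 106 and 190 edgeR calls. Without the Pdf-rich cells, in which the libraries differed, 105 genes were higher and 196 lower. A fit of all 10 libraries, which pools the spread of the other time points and has no block, called 22 higher and 38 lower genes. With 1 library left out, in a fit that pools the spread of the other time points and has no block, 9 genes were higher and 3 lower without the December ZT14 library, 13 and 1 without the March ZT14 library, 7 and 20 without the December ZT02 library, and 12 and 31 without the March ZT02 library.

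Genes of the second arm of the clock loop were higher at ZT14. Of 13 clock-loop genes outside the gate, 3 rose at ZT14 (vri, Pdp1 and Usp8), 0 fell and 10 did not pass the test. The shares over all genes tested were 1.27% higher and 2.27% lower. The median log2 fold change of the list was -0.07, so the 3 genes moved against a list that as a whole lay close to the other genes. A further 3 members were lower at an unadjusted p under 0.05.

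vri encodes a bZIP repressor of Clk and lies on chromosome 2L (5288944 to 5311223, plus strand, BDGP6 assembly, the coordinates of dm6). Its level was 10.6 and 11.6 at ZT14, against 2.49 and 2.02 at ZT02. Both ZT14 libraries lay far above both ZT02 libraries. The log2 fold change was 2.24 (SE 0.16, edgeR adjusted p = 0.0012), a 4.72-fold rise, and vri was the clock-loop gene that passed in each of the 4 leave-one-out fits (adjusted p from 0.0062 to 0.023). Over all 19 alternative fits its log2 fold change lay between 1.96 and 2.58. At least 1 vri UMI was present in 89.1% and 92.7% of kept cells at ZT14 and in 64.4% and 58.7% at ZT02. After each cell was thinned to 1000 UMIs these shares were 61.2% and 64.3% at ZT14 and 23.7% and 20.4% at ZT02. In the sorted cells that failed the gate, the thinned shares were 3.85% and 8.52% at ZT14 and 4.40% and 2.14% at ZT02.

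Pdp1 encodes the bZIP activator that opposes VRI at Clk, and lies on chromosome 3L (7811458 to 7867369, minus strand). It was the most abundant of the 3, at 153 and 140 at ZT14, against 65.7 and 39.2 at ZT02. The groups did not overlap, and the March ratio was the larger one. The log2 fold change was 1.46 (SE 0.19, edgeR adjusted p = 0.012). In the fit of all 10 libraries without a block, Pdp1 did not pass (edgeR adjusted p = 0.057). With 1 library left out of that fit, its log2 fold change lay between 1.09 and 1.81. At least 1 Pdp1 UMI was present in 99.7% of kept cells, and also in 91.8% to 94.3% of the sorted cells that failed the gate, where its level was 20.1 and 20.3 at ZT14 and 24.6 and 20.97 at ZT02.

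Usp8, whose product removes ubiquitin from CLK, was a low transcript, at 0.484 and 0.408 at ZT14 and 0.212 and 0.197 at ZT02. Its log2 fold change was 1.03 (SE 0.15, adjusted p = 0.016 in edgeR, 0.11 in DESeq2). The other members did not pass. cyc, the partner of Clk, was at 0.267 and 0.235 at ZT14 and 0.252 and 0.196 at ZT02 (log2 fold change 0.12, adjusted p = 0.78). cry, the blue-light receptor of clock neurons, was at 0.829 and 1.37 at ZT14 and 0.760 and 2.90 at ZT02, so that the groups overlapped (-0.62, adjusted p = 0.28). CrebB, a cAMP-responsive transcription factor with a role in the clock, had a log2 fold change of -0.56 (adjusted p = 0.069). The rest of the list (Eip75B, Hr51, kay, brm, nej, tyf and Atx2) lay between -0.35 and 0.09. Of 19 genes that act on clock protein turnover or light input, qsm fell and 18 did not pass, and of all genes tested 2.27% fell. qsm, which acts in the light response of clock neurons, was at 0.0416 and 0.0289 at ZT14 and 0.212 and 0.139 at ZT02 (log2 fold change -2.36, SE 0.29, adjusted p = 0.0091), with UMIs in 3.94% of kept cells.

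**Figure D1:**
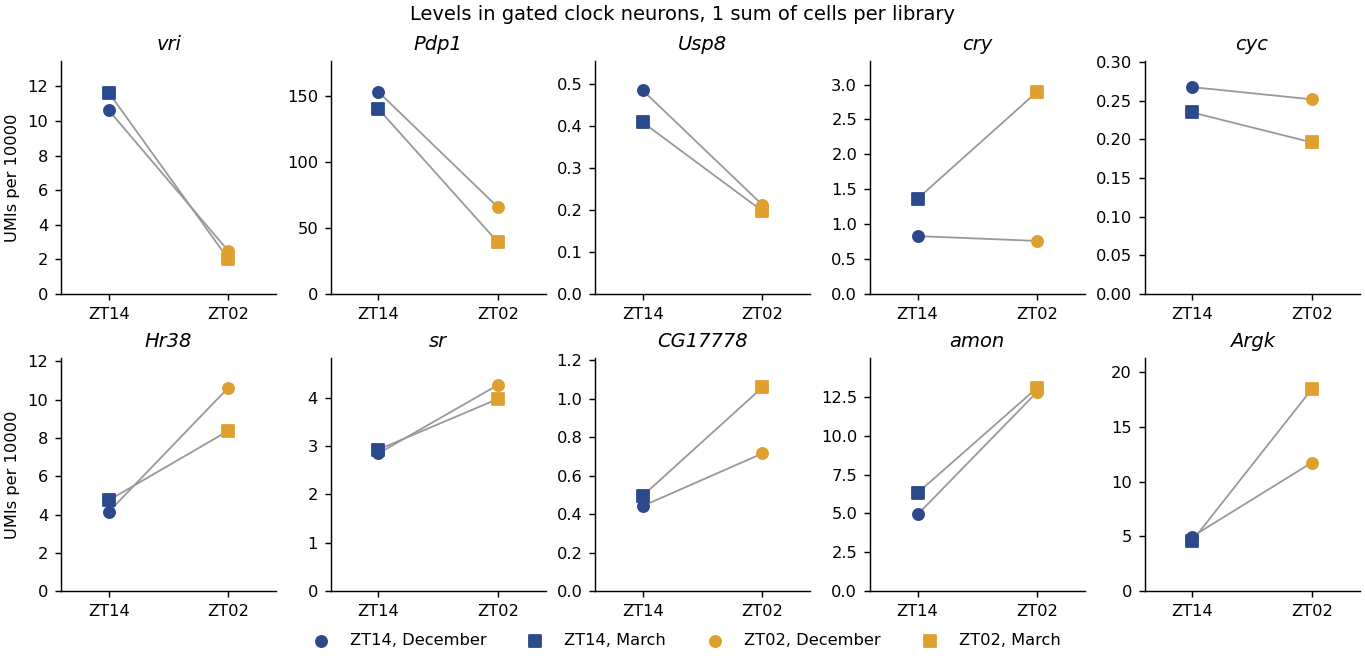
Each panel gives 1 gene in UMIs per 10000 of the summed clock neurons, ZT14 left and ZT02 right. Circles are the December libraries, squares the March libraries, and lines join libraries of 1 date. vri, Pdp1 and Usp8 are higher and Hr38, CG17778, amon and Argk lower at ZT14 in both dates, while cry and cyc overlap between the time points.

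Hr38 and CG17778, genes known to be induced by neuronal activity, fell at ZT14. Of 10 such genes tested, 2 fell, 0 rose and 8 did not pass. Over all genes tested, 2.27% fell and 1.27% rose. A negative fold change was seen in 9 of the 10, with a median log2 fold change of -0.38, against 0.03 over all genes tested. Hr38 encodes the fly NR4A-type nuclear receptor widely used as a marker of recent activity, and lies on chromosome 2L (20683462 to 20714588, minus strand). It was at 4.14 and 4.75 at ZT14, against 10.6 and 8.38 at ZT02, with no overlap (log2 fold change -1.16, SE 0.17, edgeR adjusted p = 0.015). It shares exonic sequence with an antisense gene, CG2617, and the use of strand in counting is not given in the sources used here. CG17778 was at 0.443 and 0.496 at ZT14 and 0.715 and 1.06 at ZT02 (-0.99, SE 0.15, adjusted p = 0.016). sr, the fly member of the EGR family, was at 2.85 and 2.93 at ZT14 and 4.26 and 3.97 at ZT02 (-0.58, adjusted p = 0.063), and CG14186 had a log2 fold change of -0.73 (adjusted p = 0.060). The exception was CG13868, at 4.36 and 5.16 at ZT14 and 2.74 and 3.22 at ZT02 (0.60, adjusted p = 0.053). The other members, CG8910, cbt, CG13055, CG46385 and Atf3, lay between -0.39 and -0.16, and CG11221 had too few UMIs to be tested. In the fit of all 10 libraries without a block, Hr38 passed (edgeR adjusted p = 0.048) and CG17778 did not (0.14). The Hr38 call was lost when any 1 of the 4 libraries was left out of that fit. Its log2 fold change then lay between -1.318 and -1.004, and that of CG17778 between -1.26 and -0.66. Since CG17778 did not pass with every library kept, leaving out a library cannot show whether its call rests on 1 library.

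Outside the clock neurons, 9 of the 10 activity genes had a negative fold change and 0 passed the test. In the sorted cells that failed the gate, the median log2 fold change of the same list was -0.73, Atf3 was the 1 member above 0 (0.17), and Hr38 had -1.17 (adjusted p = 0.16). The difference of the Hr38 change between kept and other cells was -0.03 on the log2 scale (edgeR interaction test, adjusted p = 0.9995).

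Several transcripts detected in most kept cells rose or fell by 2-fold or more. The genes named in this and the next paragraph were picked after their values were seen. They are called genes with a mean level of 3 or more and UMIs in at least 50% of kept cells. Rh7 and Nhe2, which met neither limit, were added. CG31324 was at 10.1 and 9.97 at ZT14, against 3.01 and 1.73 at ZT02 (log2 fold change 2.07, SE 0.20, edgeR adjusted p = 0.0044). CG15628 was at 10.0 and 20.1 at ZT14, against 3.66 and 4.98 at ZT02 (1.67, SE 0.17, adjusted p = 0.0050). Both had both ZT14 libraries above both ZT02 libraries, and neither has a role that can be stated with certainty. HmgZ, which encodes a high-mobility-group chromatin protein, was at 9.36 and 8.33 at ZT14 and 3.64 and 3.84 at ZT02 (1.17, SE 0.13, adjusted p = 0.0068). CG43658 (1.34), CG13054 (0.997), side-III (0.75, a cell-surface protein of the Sidestep family), unc-13-4A (0.73) and Sdc (0.73, the heparan sulfate proteoglycan syndecan) also rose. Rh7, an opsin known in clock neurons, was at 2.72 and 1.79 at ZT14 and 1.05 and 0.928 at ZT02 (1.08, SE 0.15, adjusted p = 0.013).

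Other broad transcripts fell, and so did the less broad Nhe2. CG32369 was at 1.52 and 0.995 at ZT14, against 5.97 and 4.16 at ZT02 (log2 fold change -2.09, SE 0.13, edgeR adjusted p = 0.00078). Argk, arginine kinase, which buffers ATP, was at 4.98 and 4.60 at ZT14, against 11.7 and 18.4 at ZT02 (-1.69, SE 0.20, adjusted p = 0.0072). Nhe2, a sodium-proton exchanger, was at 0.380 and 0.438 at ZT14, against 1.41 and 1.81 at ZT02 (-2.05, SE 0.13, adjusted p = 0.00078). All 3 separated the time points completely, and leaving out 1 library kept the CG32369 log2 fold change between -2.40 and -1.83 and that of Nhe2 between -2.23 and -1.84. fne, an RNA-binding protein of the ELAV family, was at 15.9 and 16.7 at ZT14 and 30.4 and 25.2 at ZT02 (-0.83, SE 0.15, adjusted p = 0.032). Eip63F-1, a calcium-binding protein, had a log2 fold change of -1.42, chn, a zinc-finger transcription factor, -1.09, gce, a receptor of juvenile hormone, -0.87, the aldolase gene Ald1 -0.87 and jeb, the ligand of the receptor tyrosine kinase Alk, -0.76. The other broad genes that fell were Dyrk2, CG34384, CG43066, Cow, tna, CG9674, rdgA, Hs3st-A, CG10804, bol, msi, Rbp6 and Pde9, with log2 fold changes between -1.37 and -0.62.

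Peptide transcripts moved in both directions. Of 25 neuropeptide genes tested, CNMa rose, NPF and Proc fell and 22 did not pass. Among all genes tested, 1.27% rose and 2.27% fell. CNMa, the gene of a peptide made by a few dorsal clock neurons, was at 3.24 and 8.56 at ZT14, against 0.405 and 0.861 at ZT02 (log2 fold change 3.11, SE 0.15, edgeR adjusted p = 0.00033). Cells with 5 or more CNMa UMIs were 1.74% and 5.0% of kept cells at ZT14 and 0.515% and 2.35% at ZT02. The level in those cells was 98.7 and 117 per 10000 at ZT14 and 60.7, from 1 cell, and 19.3 at ZT02. A sum over cells mixes the number of CNMa cells caught with the level in each, and the same holds for every gene of a small cell group.

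NPF, the fly relative of neuropeptide Y, was at 0.478 and 0.345 at ZT14, against 2.35 and 4.17 at ZT02 (log2 fold change -3.07, SE 0.30, edgeR adjusted p = 0.0041). A single cell held 23.4% of all NPF UMIs. Without the top cell of each library the levels were 0.406 and 0.320 at ZT14 and 1.59 and 3.0 at ZT02. Cells with 5 or more NPF UMIs were 2.99% and 1.95% of kept cells at ZT14 and 6.19% and 4.63% at ZT02, with levels in them of 12.3 and 7.90 at ZT14 and 34.5 and 63.4 at ZT02. Proc, the proctolin gene, overlapped between time points, at 0.472 and 1.21 at ZT14 and 0.913 and 3.98 at ZT02, and passed through the date block (-1.45, adjusted p = 0.012). With 1 library left out of the fit without a block, the Proc log2 fold change ran from -2.50 to -0.15. It ran from 2.22 to 3.81 for CNMa and from -3.45 to -2.59 for NPF. With all 10 libraries kept, that fit already did not call Proc, CNMa or NPF (edgeR adjusted p = 0.36, 0.14 and 0.17). Leaving out a library therefore cannot show whether these calls rest on 1 library.

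Among 18 genes of peptide processing and release, amon fell and 17 did not pass, beside 2.27% of all genes tested that fell. amon encodes the proprotein convertase that cuts peptide precursors, and lies on chromosome 3R (26697697 to 26714159, minus strand). It was at 4.93 and 6.32 at ZT14, against 12.8 and 13.1 at ZT02, with no overlap. At least 1 amon UMI was present in 82.3% of kept cells and in 57.5% to 69.6% of the sorted cells that failed the gate. The log2 fold change was -1.28 (SE 0.14, edgeR adjusted p = 0.0064), and the fold change lay between -1.49 and -1.09 with 1 library left out (adjusted p from 0.051 to 0.092).

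Receptor genes changed one by one, beside 1.27% of all genes tested that rose and 2.27% that fell. Of 37 peptide receptor genes, SIFaR rose, MsR1 and AstA-R1 fell and 34 did not pass. MsR1, a myosuppressin receptor, was at 0.134 and 0.0907 at ZT14 and 0.331 and 0.339 at ZT02 (log2 fold change -1.73, adjusted p = 0.0091). AstA-R1, a receptor of allatostatin A, was at 0.401 and 0.467 at ZT14 and 1.27 and 0.890 at ZT02 (-1.32, adjusted p = 0.015). SIFaR, the receptor of the SIFamide peptide, was at 0.790 and 0.348 at ZT14 and 0.340 and 0.216 at ZT02 (0.84, adjusted p = 0.043 in edgeR, 0.21 in DESeq2). Its lowest ZT14 value barely exceeded its highest ZT02 value. Of 18 amine receptor genes, 2 rose and 1 fell. Dop1R1, a dopamine receptor coupled to cAMP, was at 2.28 and 3.88 at ZT14 and 1.10 and 1.56 at ZT02 (1.12, SE 0.14, adjusted p = 0.0091). The serotonin receptor gene 5-HT2A had a log2 fold change of 0.76 (adjusted p = 0.030 in edgeR, 0.27 in DESeq2). The octopamine receptor gene Oamb was at 0.193 and 0.265 at ZT14 and 0.483 and 1.15 at ZT02 (-1.90, SE 0.20, adjusted p = 0.0052).

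Genes of fast transmission and of cyclic nucleotide signalling had mostly negative fold changes, and few of them passed the test. Over all genes tested in the clock neurons, 1.27% rose, 2.27% fell and the median log2 fold change was 0.03. Of 28 genes for ionotropic and muscarinic receptors, 3 fell and 0 rose, and 26 had a negative fold change, with a median log2 fold change of -0.31 in the clock neurons and -0.05 in the other sorted cells. The 3 were the muscarinic receptor gene mAChR-B (-1.05, adjusted p = 0.014) and the nicotinic subunits nAChRalpha1 (-0.70, 0.039) and nAChRalpha3 (-0.65, 0.038), the last with overlapping groups. Of 18 genes of transmitter synthesis and transport, Vmat and Tbh fell, 0 rose, and the median was -0.37, against 0.04 in the other cells. Tbh, which makes octopamine from tyramine, was at 2.56 and 2.93 at ZT14 and 4.81 and 4.64 at ZT02 (-0.86, SE 0.13, adjusted p = 0.020). Vmat, the vesicular monoamine transporter, also fell (-1.66, adjusted p = 0.0050), but 1 cell held 99.2% of its UMIs in the December ZT02 library. The 7 neuron markers had a median of -0.34, with 0 called and 4 lower at an unadjusted p under 0.05; their part in the changes of these lists was not tested.

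Of 31 genes of cAMP and cGMP signalling, 4 fell, Nos rose, and 26 had a negative fold change (median -0.26, against 0.03 over all genes tested). The 4 were the adenylyl cyclases Ac13E (-1.11, edgeR adjusted p = 0.014) and Ac78C (-0.70, 0.045) and the phosphodiesterases Pde11 (-0.93, 0.024) and Pde9 (-0.62, 0.048). Ac13E was at 1.82 and 1.54 at ZT14 and 3.17 and 3.68 at ZT02, and Ac78C overlapped between the groups. Nos, nitric oxide synthase, was at 0.746 and 1.36 at ZT14 and 0.360 and 0.547 at ZT02 (1.14, SE 0.14, adjusted p = 0.0087). Of 47 ion channel genes 1 passed. Trpm, a cation channel, was at 2.06 and 2.22 at ZT14, against 1.02 and 0.931 at ZT02 (1.07, SE 0.13, adjusted p = 0.0091). Ac13E shares exonic sequence with Gmap and Trpm with ItgaPS4 on the other strand. Of 26 synapse genes Frq2, a calcium sensor of the frequenin family, fell, at 0.790 and 0.879 at ZT14 and 1.56 and 1.61 at ZT02 (-0.99, SE 0.12, adjusted p = 0.0091), with Hesr overlapping it.

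The Notch ligand gene Dl was the 1 of 23 genes of the EGFR, PVF and Notch lists that passed. It was at 2.06 and 1.52 at ZT14, against 0.627 and 0.575 at ZT02 (log2 fold change 1.47, SE 0.14, edgeR adjusted p = 0.0035). E(spl)m6-BFM, a Bearded-family gene of the Notch-regulated Enhancer of split complex, was at 0.579 and 0.694 at ZT14, against 0.0345 and 0.0128 at ZT02 (5.23, SE 0.33, adjusted p = 0.00078), with UMIs in 7.28% of kept cells. For the lists that follow, the shares over all genes tested were 1.27% higher and 2.27% lower. Among 51 transcription factor genes of neuronal identity, svp, dac, bab1, chinmo and D fell, 0 rose and 46 did not pass. chinmo, a BTB zinc-finger gene and the most broadly detected of them, was at 6.24 and 5.56 at ZT14, against 11.0 and 9.66 at ZT02 (-0.88, SE 0.13, adjusted p = 0.015). svp and dac had UMIs in 1.41% and 1.53% of kept cells. Of 70 adhesion genes, Toll-4 and side-III rose, and DIP-lambda, DIP-zeta, DIP-theta, DIP-delta and sns fell; Toll-4 overlapped between the groups, and the DIP genes encode immunoglobulin-domain proteins that bind Dpr partners at synapses.

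Housekeeping lists showed few calls, and so did all genes tested, of which 1.27% rose and 2.27% fell. Of 84 ribosomal protein genes RpL39 rose (0.65, adjusted p = 0.041), with overlapping groups at 11.7 and 4.53 at ZT14 and 7.0 and 2.80 at ZT02. By edgeR, 0 of 67 respiratory chain genes (13 at an unadjusted p under 0.05, 12 of them higher), 0 of 13 genes of the mitochondrial genome (0) and 0 of 22 heat shock genes (3, all higher) passed. Of 32 redox and detoxification genes Ugt35B1 (-2.91) and GstE3 (-1.36) fell, and of 23 stress and translation genes ImpL2, an insulin-binding protein, fell (-1.34). In the sorted cells that failed the gate Ugt35B1 also fell (-4.18, edgeR adjusted p = 0.0072), while GstE3 (-0.45) and ImpL2 (0.22) did not pass. Of the hemocyte markers Hml fell (-3.27, UMIs in 1.18% of kept cells) and Pxn rose (0.64); 0 of the glial, photoreceptor, fat body and muscle markers passed (6 at an unadjusted p under 0.05).

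The 12 genes of largest fold in each direction were rare transcripts. Those that rose were Obp56d, Cpr65Au, BomS5, Drsl5, CG16978, IM4, Drsl4, hui, E(spl)m6-BFM, BomS2, CG42821 and Obp19d, among them odorant-binding proteins and immune-induced peptides, with log2 fold changes between 4.73 and 10.11. They had UMIs in 0.151% to 7.28% of kept cells, 20.8% to 100% of a gene's UMIs lay in 10 cells, and in 9 of 12 at least 1 ZT02 library was at 0, in which case the fitted fold depends on the prior count and is no bound. Obp56d was at 0.247 and 8.82 at ZT14 and 0 and 0.00751 at ZT02. In the sorted cells that failed the gate, Obp56d also rose, at 0.678 and 11.1 at ZT14 and 0 and 0.115 at ZT02 (6.66, edgeR adjusted p = 0.0031). There BomS5 and E(spl)m6-BFM had no fold change to give, CG16978 had -0.97, and the others had 0.95 to 5.09 without passing. Those that fell were CG8501, HP1D3csd, CG9313, NimB3, CG13315, Had2, Ppn, Hml, CG5958, ninaD, Idgf1 and CG4950, with UMIs in 0.652% to 2.46% of kept cells. Hemocyte markers moved with them: Hml (-3.27) is 1 of the 12, and NimC1 had a log2 fold change of -2.81 (adjusted p = 0.084), at 0.116 and 0.0145 at ZT14 and 0.227 and 0.293 at ZT02, while Pxn rose. Hml and Ppn had positive fold changes in VGlut cells (1.66 and 1.24), and neither passed there (edgeR adjusted p = 0.45 and 0.56). The part of these markers in the falls was not tested. In the fit of all 10 libraries without a block, 1 of the 12 that rose and 0 of the 12 that fell passed (edgeR), and DESeq2 with the block called 9 and 9. Over all calls, 63 of 106 higher and 138 of 190 lower genes had UMIs in at least 5% of kept cells, beside 6199 of 8366 genes tested. The called genes were thus not broader than the genes tested. Of the higher and lower genes, 34 and 30 had over 50% of their UMIs in 10 cells, a count not taken over all genes tested.

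vri and Pdp1 had higher levels at ZT14 in the 4 groups of clock neurons in which they were measured separately. Kept cells were split into 144 with 20 or more Pdf UMIs, 211 with 20 or more AstA UMIs and 2611 with 2 or more VGlut UMIs, the last the vesicular glutamate transporter; 47 cells were in both of the last groups and 2 in both the first and the last. The fourth group held the cells with none of these. Pdf-rich and AstA-rich cells were compared in the March collection alone, so those values compare 1 library with 1 library and carry no test. In Pdf-rich cells vri was at 13.1 at ZT14 (exact 95% Poisson interval 12.4 to 13.7, 83 cells), against 0.644 at ZT02 (0.492 to 0.830, 57 cells), a ratio of 20.3. Pdp1 in the same cells was at 159 at ZT14 (157 to 162), against 10.6 at ZT02 (9.96 to 11.3), a ratio of 15.0. The March vri ratios were 6.33 in AstA-rich cells, 5.03 in VGlut cells and 5.96 in cells with none of the 3, and the December ratios in the last 2 groups were 4.09 and 6.07. The wider range in Pdf-rich cells came with a lower morning level, below the 1.52 to 2.42 of the other March groups.

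Hr38 and Trpm lay on both sides of 1 across the groups, while amon lay below 1 in each. Hr38 in Pdf-rich cells was at 2.79 at ZT14 (2.50 to 3.11), against 1.55 at ZT02 (1.30 to 1.82), a ratio of 1.81, while its March ratio was 0.596 in AstA-rich, 0.546 in VGlut and 0.522 in the remaining cells. amon in Pdf-rich cells was at 0.871 at ZT14 (0.709 to 1.06), against 20.96 at ZT02 (20.04 to 21.9), a ratio of 0.0416. The March amon ratio was 0.205 in AstA-rich, 0.579 in VGlut and 0.596 in the remaining cells, and the December ratio was 0.365 in VGlut and 0.864 in the remaining cells. Trpm had a March ratio of 4.13 in Pdf-rich and 2.58 in VGlut cells and of 0.257 in AstA-rich cells, where its level was low, 0.0931 at ZT14 (0.0481 to 0.163) and 0.362 at ZT02 (0.259 to 0.493). Dop1R1 had March ratios of 12.7 in Pdf-rich, 4.08 in AstA-rich and 3.16 in VGlut cells. In the remaining cells its ratio was 0.973 in March, where the intervals of the levels overlapped, and 1.70 in December. Whether these ratios differ between groups was not tested.

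**Figure D2:**
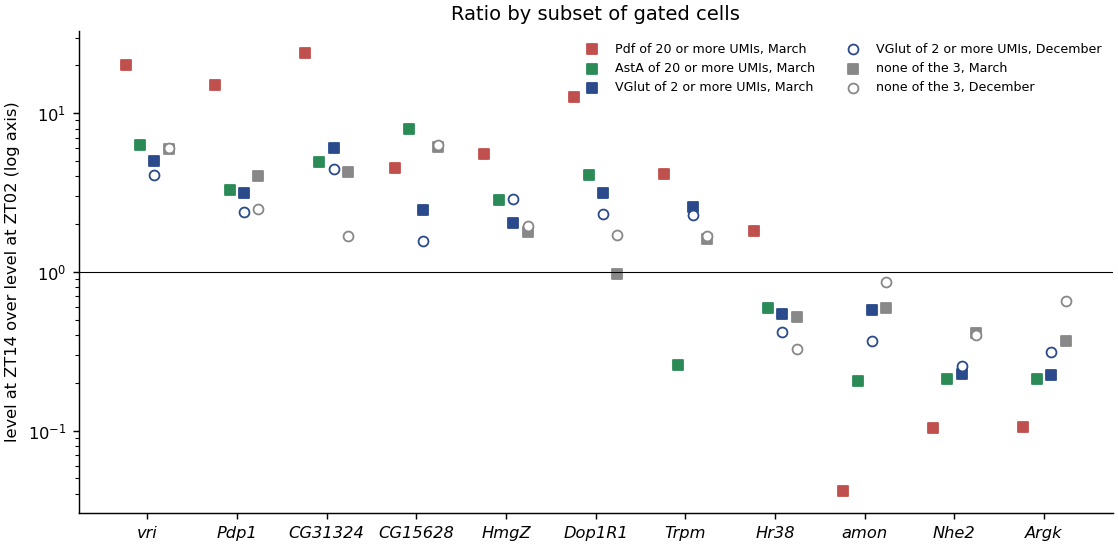
The y axis is the level at ZT14 over the level at ZT02 on a log scale for 11 genes, within subsets of the clock neurons marked by Pdf, AstA or VGlut, or by none of these. Filled squares are March pairs and open circles December pairs. All vri and Pdp1 points lie above 1, Hr38 lies above 1 in Pdf-rich cells alone, and amon, Nhe2 and Argk reach their lowest ratios there.

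The changes were set beside those in the sorted cells that failed the gate, 5758 cells of the same 4 libraries. In a joint fit of kept and other cells, 1 of 7930 genes had a change that differed between the classes at an adjusted p under 0.05, which is 0.0126%, and 499 had an unadjusted p under 0.05 (edgeR interaction test with the library as a block; DESeq2 called 55). That gene was Obp44a, an odorant-binding protein gene. Of the genes called in clock neurons, 0 of 102 higher and 0 of 188 lower genes in this fit passed the interaction test, and 46 and 98 had an unadjusted p under 0.05. The median log2 fold change of those higher genes was 1.31 in the clock neurons and 0.49 in the other cells, and of those lower genes -1.14 and -0.15. Since the genes were chosen for their change in the clock neurons, a larger value there was built in. For Pdp1 the change was 1.46 in clock neurons and -0.21 in other cells (difference 1.64, edgeR adjusted p = 0.18), for vri 2.24 and 0.83 (1.42, 0.22), and for amon -1.28 and 0.12 (-1.45, 0.14). None of these 3 differences passed the adjustment. The other cells are not a pure class, since cells with few UMIs of the gate genes fall among them.

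**Figure D3:**
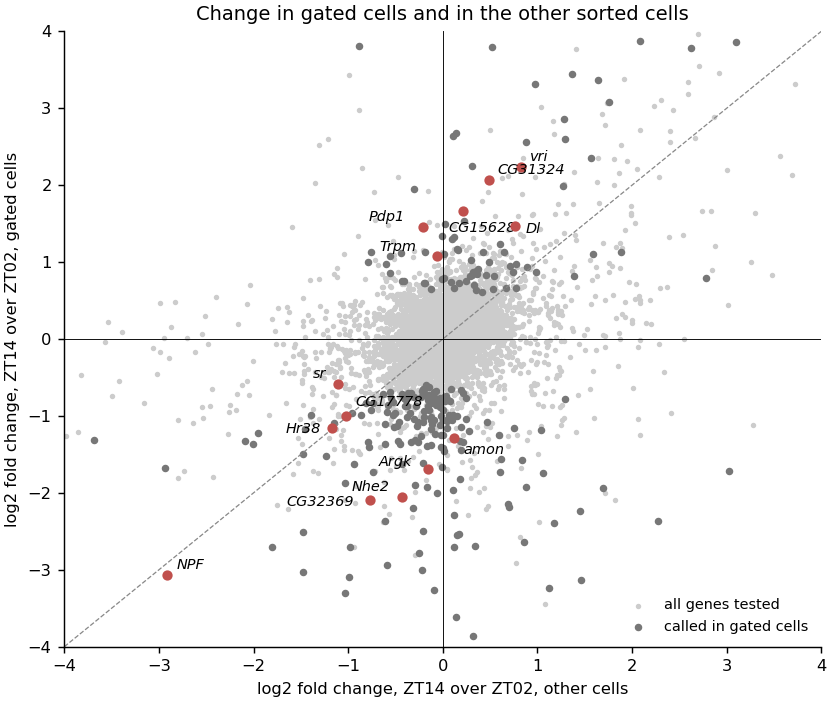
The y axis is the log2 fold change of ZT14 over ZT02 in the gated clock neurons and the x axis that in the other sorted cells, for 7770 genes tested in both, of which 36 lie outside the axes. Dark points are genes called in the clock neurons, and red points are labelled genes: Pdp1, amon and Argk lie near 0 on the x axis, whereas Hr38, CG17778 and NPF lie near the dashed line of equal change.

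The 6 libraries of other time points, which the comparison did not use, placed the 2 times within the day. vri was at 4.18 and 4.11 at ZT06, 10.3 at ZT10, 9.65 at ZT18 and 4.18 and 3.76 at ZT22, so ZT14 lay at the top and ZT02 at the bottom of its range. Pdp1 was at 48.6 and 46.8 at ZT06, 67.4 at ZT10, 140 at ZT18 and 96.2 and 93.6 at ZT22, later in its rise and fall than vri. CG31324 followed a course like that of vri, with 10.5 at ZT18 and 3.98 and 4.03 at ZT22. amon was at 12.2 and 10.1 at ZT06, 9.01 at ZT10 and 5.65 at ZT18.

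Hr38 had another shape. Its level was 8.88 and 8.995 at ZT06, 10.4 at ZT10, 9.31 at ZT18 and 7.80 and 5.76 at ZT22, so that both ZT14 libraries lay below all 8 other libraries. CG32369 was lowest at ZT10, 0.943, and highest at ZT22, 7.24 and 7.58, above both ZT02 libraries. CNMa was at 0.212 and 0.0771 at ZT06 and at 3.33 at ZT10. NPF was at 17.2 and 4.26 at ZT06 and at 0.285 at ZT18. The 2 ZT06 libraries of NPF lay far apart.

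A further 2 dates each gave a pair of libraries 12 hours apart, ZT18 with ZT06 and ZT22 with ZT10; the second pair was added after its values were seen. Of the genes higher at ZT14, 67 of 103 with a nonzero difference were higher at ZT18 than at ZT06 (65.0%), and of the genes lower at ZT14, 154 of 190 were lower at ZT18 (81.1%). Over all genes tested, 46.6% were higher and 53.4% lower at ZT18 than at ZT06. At ZT22 against ZT10, 59 of the 106 genes higher at ZT14 (55.7%) were higher at ZT22, and 42 of the 190 genes lower at ZT14 (22.1%) were lower at ZT22, beside 42.3% higher and 57.7% lower over all genes tested. Most of the genes lower at ZT14 were thus higher at ZT22 than at ZT10, and vri was lower at ZT22. Each share describes 1 library pair.

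**Figure D4:**
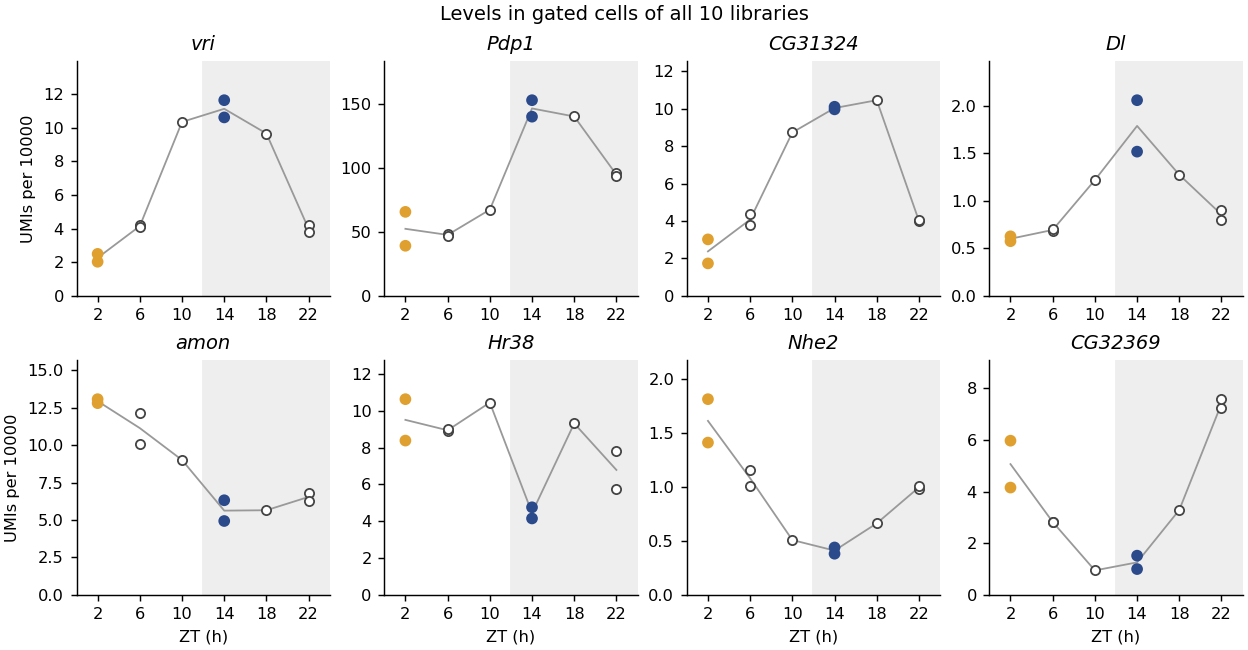
Each panel gives 1 gene in UMIs per 10000 of the gated cells against ZT in hours, with 1 point per library, a line through the means and the dark phase shaded. Orange points are the ZT02 and blue points the ZT14 libraries, and open points the other 6. vri, Pdp1, CG31324 and Dl are high around ZT14, while Hr38 dips at ZT14 between higher values at ZT10 and ZT18.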

How the data were processed

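Single-cell RNA was measured with the 10x Genomics 3′ v3 chemistry. The deposited values are counts, the UMIs per gene and cell that the authors obtained with Cell Ranger (version not given in the sources used here) from exonic alignments to dm6, not normalized. The use of strand was not stated, so whether genes that overlap on opposite strands were told apart is not known here. Among genes named, cry, CrebB, tyf, Hr38, CG8910, nAChRalpha3, Vmat, Trpm, Ac13E, Frq2 and Pxn share exonic sequence with such a gene. So do DIP-zeta, RpL39, Sdc, Eip63F-1, gce, Ald1, tna, Rbp6, Cpr65Au, CG9313 and CG4950. Nhe2, ImpL2, svp, cry, Pxn and DIP-theta share exonic sequence with a gene on the same strand. The study excluded doublets found by Scrublet. Whether this came before deposit was not stated, and no further doublet removal was run. Among the 4 libraries, the 2 March libraries shared 2 cell barcodes, 0 of them in kept cells, and no other pair shared any. Bulk libraries were not used here, since all were taken at ZT02.

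Kept cells were summed per library. Genes with 10 or more UMIs in 2 or more of the 4 sums were tested with edgeR 4.0.16 in R 4.3.3 (quasi-likelihood, TMM factors 0.964 to 1.04, ZT14 over ZT02, collection date as a block, Benjamini-Hochberg adjustment, threshold 0.05). The scripts were tested on simulated data. Nothing says how many flies or dissections a library holds, so p-values do not measure the spread between flies. They rest on the spread left between these libraries after the date block, with 1 residual degree of freedom per gene. Most of the weight lay on dispersion shared across genes, with a prior of 5.98 degrees of freedom. The date is in the labels of both time points, and the differences between dates, December minus March, correlated between ZT14 and ZT02 (r = 0.602 across 3745 genes of 1000 or more UMIs, which are not independent). The interaction test used 8 sums, with 10 or more UMIs in 4 or more. DESeq2 1.42.0, other gates, other filters and left-out libraries were the alternatives. Named genes were the 12 of largest fold in each direction with 100 or more UMIs that changed alike in both dates, all clock-loop and activity genes, and up to 4 called genes of each other list. Members and lists were chosen with earlier results of these data known. Gene positions came from the Ensembl annotation of BDGP6, which held 13492 of 17299 gene symbols in the table.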

Additional observations from a re-analysis of the deposited data

Results flagged for a closer look

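Obp44a, an odorant-binding protein gene, was the 1 gene whose change differed between the gated clock neurons and the other sorted cells of the same libraries by an adjusted test of the difference. The difference of the log2 changes was 3.05 (SE 0.16, edgeR interaction test, adjusted p = 0.038). In the clock neurons Obp44a was at 1.69 and 0.517 UMIs per 10000 at ZT14 and 0.508 and 1.22 at ZT02, December first, so that the dates went opposite ways (log2 fold change 0.01). In the other cells it was at 0.691 and 0.207 at ZT14 and 1.80 and 4.26 at ZT02 (-2.94, adjusted p = 0.30). Its exons overlap Pabp2 on the other strand, whose part in the value was not tested.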

How the results depend on the processing

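Counts of genes higher and lower at ZT14 (106 and 190) depended on the fit and the gate. Without the date block, the fit with no replicate block called 0 and 0. The number called was 164 higher without the filter on low counts, 70 and 106 with a gate of 2 UMIs, 101 lower with a gate of 8 UMIs, 37 and 46 with a gate of 6 UMIs per 10000, 38 and 120 in the cells of highest gate share in each library, 385 lower with a gate on Clk and cwo, 19 and 10 with no gate, 162 and 320 among cells of at most 15000 UMIs, 313 lower in VGlut cells and 22 and 38 in the fit of all 10 libraries with no replicate block. An alternative added after seeing the data, which tested only genes with UMIs in 5% or more of kept cells, called 260 and 497. With 1 library left out, the counts ran from 7 to 13 higher and from 1 to 31 lower. RLE factors in place of TMM factors (100 and 195) kept both within 1.5 times. DESeq2, a different test with the same block, called 82 and 218. Of those, 64 and 150 were among the 106 and 190 of the main fit. The interaction count of 1 was 0 with no replicate block, with other cells of 0 gate UMIs, and with gates of 2 or 8 UMIs, and 55 in DESeq2.

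Log2 fold changes that reversed were those of Ppn (1.24) and Hml (1.66) in VGlut cells, Vmat with the gate on Clk and cwo (2.02), GstE3 in VGlut cells (0.10) and without ZT02 replicate 1 (leave-one-out range -3.28 to 0.59), RpL39 without ZT14 replicate 1 (range -0.15 to 1.44), and DIP-lambda with a gate of 8 UMIs (0.22), in the cells of highest gate share (0.43) and at most 15000 UMIs (0.37); the cause was not tested. In VGlut cells the reversed values of Ppn, Hml and GstE3 did not pass (edgeR adjusted p = 0.56, 0.45 and 0.98). Of 96 named calls, 96 were lost without the block, 86 without a gate, 9 with the gate on Clk and cwo, 4 without Pdf-rich cells and 18 in DESeq2. Those lost in DESeq2 included Usp8, SIFaR, 5-HT2A, nAChRalpha3, Ac78C, svp, dac, bab1, Pxn, DIP-lambda and Toll-4. The fit of all 10 libraries with no block lost 72 with every library kept. More were lost when 1 library was left out of it. The December ZT02 library, the smallest at 194 kept cells, limits what rare transcripts can show.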
